A study of Mus musculus with 2 samples.

Results

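The genes that move zinc, iron and copper across membranes, store them, or sense them were examined in C2C12 myotubes given exosomes of pancreatic cancer cells or of normal pancreatic duct cells. They were chosen by name, as every array probe named for a zinc importer of the Slc39a family, a zinc exporter of the Slc30a family, metallothionein 1 to 4, the zinc-sensing factor Mtf1, the transporters Slc11a1, Slc11a2, Slc40a1, Slc31a1 and Slc31a2, the copper pumps Atp7a and Atp7b, transferrin and its receptor, the 2 ferritin chains, or the iron regulatory proteins Aco1 and Ireb2. The rule found 42 genes, read by 71 probes, among 37325 gene names and 56605 probes on the array. Of the 42 genes, 33 were measured on both arrays, 1 was measured on the KPC-exo array alone, and 8 were below that level on both.

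C2C12 myoblasts, a mouse skeletal muscle line, were differentiated in low-serum medium, and the resulting myotubes were treated. In the KPC-exo group, they were exposed for 24 h to 4 µg of exosomes, which are small vesicles secreted by cells. The exosomes came from a tumour cell line of mice with the alleles KrasLSL-G12D/+ and Trp53LSL-R172H/+ and Pdx1-Cre, a Cre driver of the pancreatic lineage. In the MPDC-exo group, the control, exosomes from a murine pancreatic duct epithelium line were given instead, also for 24 h, at a dose not given in the sources used here. Both groups are the same muscle line, each vesicle source is a single line, and no group without exosomes is part of the comparison. There was 1 array per group, so each difference lies between 2 arrays, has no replicate check, and carries no p-value.

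Zinc, iron and copper are cofactors that become toxic when free, so cells balance import, export and storage. Slc39a proteins bring zinc into the cytosol and Slc30a proteins take it out, while metallothioneins bind zinc and copper through clustered cysteines. Excess zinc activates Mtf1, which binds short metal response elements in front of the metallothionein genes and Slc30a1. Iron enters through the transferrin receptor, is stored in ferritin and leaves through Slc40a1, and the iron regulatory proteins set this balance largely by binding ferritin and receptor mRNAs, controlling translation of the first and decay of the second. Skeletal muscle holds much of the zinc of the body, and its myoglobin and respiratory chain use iron and copper.

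The promoters of 3 metallothioneins and of Slc30a1 are shown because Mt1, Mt2 and Slc30a1 are textbook targets of Mtf1, while Mt3 is known as a family member that metals do not readily induce, and because the array values of these genes differ among themselves. Each is the RefSeq window of 300 bases around the annotated start, build GRCm38.p6, read 5′ to 3′, and its last 50 bases follow the start. Capitals mark the core of a metal response element, searched as TGCACNC and TGCGCNC on both strands, where N is any base and overlapping matches were counted separately.
Mt1 promoter, chr8:94178839-94179138, plus strand: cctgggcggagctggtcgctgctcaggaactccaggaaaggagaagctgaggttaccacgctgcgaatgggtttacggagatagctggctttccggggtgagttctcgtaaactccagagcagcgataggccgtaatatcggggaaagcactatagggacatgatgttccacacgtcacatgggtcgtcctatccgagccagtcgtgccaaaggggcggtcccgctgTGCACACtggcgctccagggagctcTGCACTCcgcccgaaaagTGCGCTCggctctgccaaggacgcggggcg
Mt2 promoter, chr8:94172368-94172667, plus strand: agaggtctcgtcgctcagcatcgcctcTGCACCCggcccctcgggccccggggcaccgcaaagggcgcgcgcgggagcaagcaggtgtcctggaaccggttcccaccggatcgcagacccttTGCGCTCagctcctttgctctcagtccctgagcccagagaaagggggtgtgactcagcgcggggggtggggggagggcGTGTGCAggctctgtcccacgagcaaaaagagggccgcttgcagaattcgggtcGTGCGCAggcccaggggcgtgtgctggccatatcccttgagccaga
Mt3 promoter, chr8:94152357-94152656, plus strand: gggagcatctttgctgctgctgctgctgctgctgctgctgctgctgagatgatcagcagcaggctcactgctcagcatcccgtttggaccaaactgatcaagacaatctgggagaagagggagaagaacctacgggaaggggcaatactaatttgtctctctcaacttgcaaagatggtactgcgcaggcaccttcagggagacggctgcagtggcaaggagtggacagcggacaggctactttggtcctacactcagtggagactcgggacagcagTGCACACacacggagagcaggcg
Slc30a1 promoter, chr1:191906531-191906830, plus strand: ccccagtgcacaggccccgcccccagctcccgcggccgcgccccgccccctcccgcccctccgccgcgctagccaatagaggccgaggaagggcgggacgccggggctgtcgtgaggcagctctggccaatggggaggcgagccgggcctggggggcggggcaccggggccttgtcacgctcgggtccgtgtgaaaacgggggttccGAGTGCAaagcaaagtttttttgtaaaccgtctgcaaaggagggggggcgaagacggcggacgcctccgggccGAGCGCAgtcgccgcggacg

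The Mt2 window held 4 cores, the Mt1 window 3, the Slc30a1 window 2 and the Mt3 window 1. At least 1 core was found in 25.7% of all 32851 RefSeq windows of this length, and at least 3 cores in 1.97%. Among the genes examined here, 35 had a window in the table and 20 of them held at least 1 core in any of their windows. Counted by window, as for the share of all windows, 21 of 42 held at least 1 core, which is 50%. The 42 windows included 4 with at least 3 cores, those of Mt1, Mt2, Slc30a10 and Slc30a4. The letters describe the sequence only and do not show that a factor binds there.

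Signals are given as scaled signal, the processed intensity of a probe divided by the 75th percentile of its array. That percentile was 639 units on the KPC-exo array and 380 units on the MPDC-exo array. A difference is log2 of KPC-exo over MPDC-exo, so 0 means equal scaled signal. After centring on 7 spike-in probes instead, every difference moved up by 1.00 on the log2 scale and the median of all genes became 1.06, so the values below are relative to other genes and not absolute amounts. Each gene is represented by its brightest probe that the scanner software called well above background on both arrays. Probes differ in affinity, so signals were not read as relative amounts of different genes. Brightness served only to set a gene beside others of similar signal. Marker signals were summed within lists, over the brightest probe of every listed marker, whether or not it was well above background. A gene was counted as higher or lower on the KPC-exo array where it was at least 1.5-fold apart. Of 16993 genes measured on both arrays, 634 were higher by this rule, which is 3.73%, and 629 were lower, which is 3.7%.

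By that threshold, 1 of the 33 measured metal genes was higher on the KPC-exo array, the iron and manganese transporter Slc11a1, and 2 were lower, the metallothionein Mt3 and the zinc exporter Slc30a2. These 3 of 33 stand beside 7.43% of all measured genes past the threshold in either direction, a share near the background, which is no result about metal genes as a class. At 2-fold, none of the 33 was counted in either direction, beside 0.73% of all measured genes higher, 1.19% lower and 1.92% in all. At a difference of at least 25%, 5 of the 33 were higher and 3 lower, beside 15.5% higher, 10.1% lower and 25.6% in all. The median difference of the 33 was 0.11 on the log2 scale and that of all measured genes was 0.06. Above the median of all genes lay 18 members, and 15 lay below it.

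**Figure D1:**
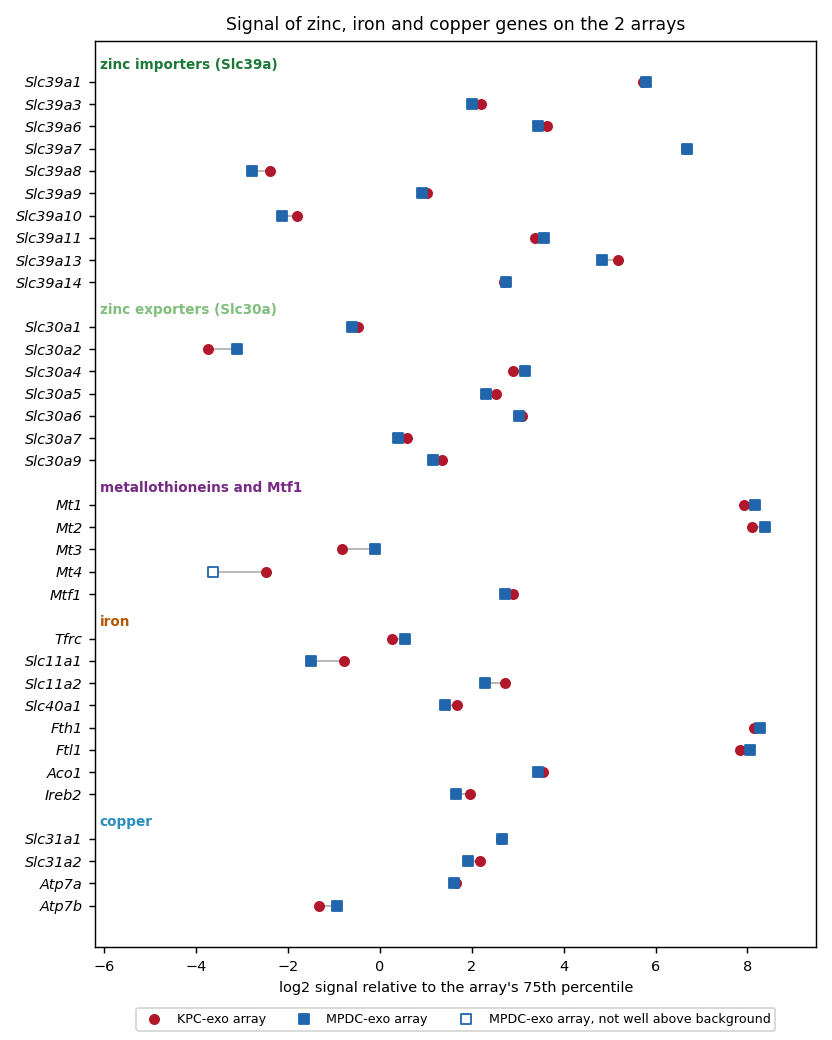
Scaled log2 signal of each zinc, iron and copper gene on the KPC-exo array (red circles) and the MPDC-exo array (blue squares), 1 array each, by metal. The pairs of points mostly touch, and the widest gaps between measured values are those of Slc11a1 (0.71) and Mt3 (-0.71). The open square of Mt4 marks a signal not well above background.

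Only technical error can be given. Feature Extraction reports an error for each signal, and for most bright probes it came to 0.20 on the log2 scale of the difference. Different probes of a gene disagreed by more, with a pooled SD of 0.36 over 5736 genes. Repeated spots of a probe had a median SD of 0.03 on either array. None of these includes variation between cultures. All 12 myotube markers on the list examined were measured, with summed scaled signals of 586 on the KPC-exo array and 559 on the MPDC-exo array, though their median difference was -0.06. Of 6 markers of dividing myoblasts 5 were measured, with sums of 14.0 on the KPC-exo array and 17.3 on the MPDC-exo array and a median difference of -0.33, and their part in the metal gene values was not tested. Of the 9 pancreatic epithelial markers, 2 were measured, and the sums over all 9 were 0.482 on the KPC-exo array and 0.418 on the MPDC-exo array. The sums of the myoblast and pancreatic lists thus also hold signal of markers that were not well above background. No probe of a metal gene was saturated or flagged as a non-uniform or outlier spot, and both arrays lay on 1 slide and in 1 scan. The local background, however, was flagged on at least 1 array at the probes used for Mt2, Slc30a6, Slc30a9, Tfrc and Ireb2.

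The metallothioneins gave the lowest group median. The median of Mt1, Mt2, Mt3 and Mtf1 was -0.26, with 3 genes below the median of all genes and 1 above it. Metallothionein 1 is a cytosolic zinc buffer, and its bright probe at chr8:96704165-96704224 (mm9) had a scaled signal of 245 on the KPC-exo array and 288 on the MPDC-exo array. Its difference was -0.23, with a software error of 0.20. Metallothionein 2, its close paralogue, had 273 on the KPC-exo array and 331 on the MPDC-exo array, a difference of -0.28. Both were slightly lower in scaled signal on the KPC-exo array, by less than 1.5-fold and by less than the SD between probes of a gene.

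Both probes lay among the brightest on the arrays. The 100 brightest genes, which include Mt1, Mt2 and Fth1, had a median difference of -0.24, and their 5th and 95th percentiles were -0.50 and -0.04. Genes of that brightness were lower as a whole on the KPC-exo array, and the part of this in the metallothionein and ferritin values was not tested. In the series value table the difference of Mt2 was -0.07. A weaker Mt1 probe, which lies 321 bases upstream in mm9, had 1.06 on the KPC-exo array and 0.831 on the MPDC-exo array, a difference of 0.35 in the other direction. Averaged over its 2 probes, Mt1 was 0.06.

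The metallothionein usually described as the brain form, Mt3, stood out more. Its single probe, at chr8:96677927-96677986 (mm9), had 0.563 on the KPC-exo array and 0.921 on the MPDC-exo array, which is 1.64-fold lower on the KPC-exo array, a difference of -0.71 with a software error of 0.21. In its range of signal, 10.4% of all measured genes were at least 1.5-fold apart. With normexp background correction the difference was -0.57, which is under the threshold.

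Mt4, known from stratified epithelia, was detected on the KPC-exo array alone. Its probe had 0.179 on the KPC-exo array and 0.0804 on the MPDC-exo array, where it failed the background call. Set against the dimmest detected signal of the MPDC-exo array, the KPC-exo value was 2.18-fold higher. That signal belongs to another probe, so it sets no firm limit for Mt4, and the software error of the Mt4 difference was 0.38. The probe is shown because it reads the coding sequence across an intron, with the TGC and TGT triplets of 1 frame, the codons of cysteine, in capitals.
Mt4 probe, chr8:96662155-96662693, plus strand: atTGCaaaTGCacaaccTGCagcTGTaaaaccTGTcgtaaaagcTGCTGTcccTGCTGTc

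The sequence is that of the array design, and the position, on mm9, spans 539 bases of genome. It holds 9 such triplets. Probes of different metallothioneins shared runs of at most 8 bases, although the family is short and similar. In mm9 the probes of Mt4, Mt3, Mt2 and Mt1 lie in that order along chromosome 8, and across these neighbours the values went in different directions. Mtf1, which senses zinc and drives metallothionein transcription, had 7.40 on the KPC-exo array and 6.58 on the MPDC-exo array. Its difference was 0.17, and its 4 probes ranged from -0.02 to 0.25.

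**Figure D2:**
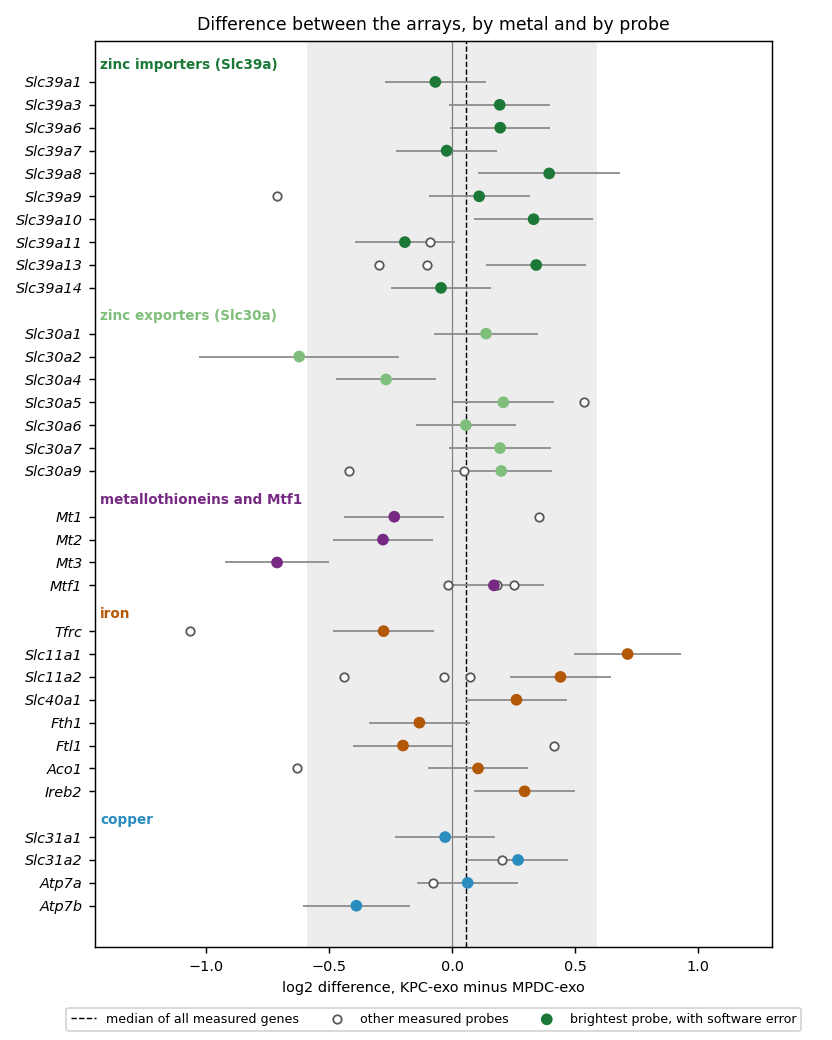
Log2 difference, KPC-exo minus MPDC-exo, of the brightest probe of each measured gene (filled, with the software error as a bar) and of its other measured probes (open). The grey band marks less than 1.5-fold and the dashed line the median of all measured genes (0.06). Filled points of Slc11a1, Mt3 and Slc30a2 lie outside the band, and an open point of Tfrc lies at -1.07.

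Of the 14 zinc importers, 10 were measured, and none was 1.5-fold apart, beside 7.43% of all measured genes. Their median difference was 0.15, and 6 lay above the median of all genes. Slc39a7, which releases zinc from the endoplasmic reticulum and Golgi, had 102 on the KPC-exo array and 103 on the MPDC-exo array. Its 2 probes gave the same difference, -0.02. Slc39a1, a plasma membrane importer, had 52.8 on the KPC-exo array and 55.3 on the MPDC-exo array, a difference of -0.07. Slc39a14, which takes up zinc, iron and manganese and has been tied to muscle wasting in cancer in mice, had 6.48 on the KPC-exo array and 6.68 on the MPDC-exo array. With a difference of -0.04 it was close to equal on the arrays, less than its software error apart.

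Slc39a13, an importer of the Golgi and intracellular vesicles, had 36.2 on the KPC-exo array and 28.6 on the MPDC-exo array, a difference of 0.34. Its other 2 probes gave -0.10 and -0.30, so its direction rests on the probe used. Slc39a8, which carries zinc and manganese, had 0.192 on the KPC-exo array and 0.146 on the MPDC-exo array, a difference of 0.39. Slc39a10, a plasma membrane importer, had 0.285 on the KPC-exo array and 0.227 on the MPDC-exo array, a difference of 0.33. Both had dim signals. With normexp, Slc39a8 came to 0.07 and Slc39a10 to 0.02.

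Slc39a6, a plasma membrane importer that pairs with Slc39a10, had 12.4 on the KPC-exo array and 10.8 on the MPDC-exo array, a difference of 0.20. Slc39a3, another plasma membrane importer, had 4.61 on the KPC-exo array and 4.03 on the MPDC-exo array, a difference of 0.19. Slc39a11 had 10.4 on the KPC-exo array and 11.9 on the MPDC-exo array, a difference of -0.19. Its second measured probe gave -0.09, in the same direction. Slc39a9 had 2.03 on the KPC-exo array and 1.89 on the MPDC-exo array, a difference of 0.11, while a dimmer probe gave -0.71. Slc39a2, Slc39a4, Slc39a5 and Slc39a12 were undetected on both arrays. The intestinal importer Slc39a4 and the brain importer Slc39a12 are known mainly from other tissues.

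Among the 10 zinc exporters, 7 were measured, with a median difference of 0.14. Slc30a1, the plasma membrane exporter and a target of Mtf1, had 0.720 on the KPC-exo array and 0.655 on the MPDC-exo array, a difference of 0.14. The difference of Slc30a1 was less than its software error of 0.21. The Slc30a1 window, like those of Mt1 and Mt2, holds at least 2 cores, as do 7.11% of all windows. Any part of the cores in these values was not tested. Slc30a4, an exporter of endosomes and secretory vesicles, had 7.45 on the KPC-exo array and 8.98 on the MPDC-exo array, a difference of -0.27. Slc30a5, which with Slc30a6 loads zinc into the secretory pathway, had 5.73 on the KPC-exo array and 4.96 on the MPDC-exo array. Its difference was 0.21, and a second probe gave 0.54. Its partner Slc30a6 had 8.47 on the KPC-exo array and 8.15 on the MPDC-exo array, a difference of 0.06. The differences of these partners lay closer together than the SD between probes of a gene.

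Slc30a7, which fills the Golgi with zinc, had 1.5 on the KPC-exo array and 1.31 on the MPDC-exo array, a difference of 0.19. Slc30a9, a mitochondrial zinc exporter, had 2.55 on the KPC-exo array and 2.22 on the MPDC-exo array, a difference of 0.20, with other probes at 0.05 and -0.42. Slc30a2, a vesicular exporter known from the mammary gland and pancreas, had 0.0747 on the KPC-exo array and 0.115 on the MPDC-exo array, which is 1.54-fold lower on the KPC-exo array. The difference was -0.62 with a software error of 0.41, close to the limit of detection. In its range of signal 12.8% of all measured genes were at least 1.5-fold apart. Slc30a3, Slc30a8 and Slc30a10 did not pass the background call. Slc30a3 and Slc30a8 are known from synaptic vesicles and insulin granules, and Slc30a10 exports manganese.

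Of the 9 iron genes, 8 were measured, with a median difference of 0.18, and 5 of the 8 lay above the median of all genes. Slc11a1, which moves iron and manganese out of phagosomes and is known from macrophages, had 0.581 on the KPC-exo array and 0.355 on the MPDC-exo array. The KPC-exo signal was 1.64-fold higher, a difference of 0.71 with a software error of 0.22, read by a single probe at chr1:74432161-74432220 (mm9). In its range of signal 14.7% of genes were at least 1.5-fold apart. With normexp its difference was 0.48, under the threshold. Of 6 macrophage markers 5 were measured, and the summed scaled signals of all 6 were 14.0 on the KPC-exo array and 14.2 on the MPDC-exo array. Differences of the measured markers ranged from -0.88 to 0.63, and the part of macrophage markers in the value of Slc11a1 was not tested.

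Slc11a2, which brings iron from endosomes into the cytosol, had 6.61 on the KPC-exo array and 4.87 on the MPDC-exo array, a difference of 0.44. Its 4 probes ranged from -0.44 to 0.44 with a mean of 0.01, so no single direction describes the gene. Slc11a2 transcripts are known to have alternative first and last exons, and the gene models that would assign these probes to them are not used here. The iron exporter Slc40a1, ferroportin, had 3.20 on the KPC-exo array and 2.67 on the MPDC-exo array, a difference of 0.26. The transferrin receptor Tfrc had 1.20 on the KPC-exo array and 1.46 on the MPDC-exo array, a difference of -0.28. A dimmer Tfrc probe 11785 bases upstream had 0.204 on the KPC-exo array and 0.427 on the MPDC-exo array, a difference of -1.07. Tfrc was thus lower on the KPC-exo array by both probes, with sizes that disagreed, and their mean was -0.67, past 1.5-fold. The local background of both probes was flagged on the KPC-exo array, so Tfrc has no value once such spots are left out.

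The ferritin heavy chain Fth1, which oxidises iron for storage, had 283 on the KPC-exo array and 310 on the MPDC-exo array, a difference of -0.13. The light chain Ftl1, which aids formation of the iron core, had 230 on the KPC-exo array and 264 on the MPDC-exo array, a difference of -0.20. By these probes both ferritin chains were slightly lower in scaled signal, but Fth1 turned to 0.07 in the series value table, 0.07 after quantile normalization and 0.01 after cyclic loess, and the mean of the Ftl1 probes was 0.11. Ftl1 lay in the brightest bin of 850 genes, whose median difference was -0.10. An upstream Ftl1 probe had 50.6 on the KPC-exo array and 38.0 on the MPDC-exo array, a difference of 0.41 in the other direction. It is shown because it disagrees with the brighter probe, and because it crosses an intron, spanning 482 bases of mm9.
Ftl1 upstream probe, chr7:52714014-52714495, minus strand: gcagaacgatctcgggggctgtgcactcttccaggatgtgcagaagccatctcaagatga

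The sequence is that of the array design, with no part marked. Ferritin genes have near-identical processed copies in the mouse genome, and whether either probe also reads transcripts of those was not tested. Of the iron regulatory proteins, Aco1, a cytosolic aconitase that binds mRNA when it lacks its iron cluster, had 11.7 on the KPC-exo array and 10.9 on the MPDC-exo array, a difference of 0.11, with a dim second probe at -0.63. Ireb2, which is degraded when iron is plentiful, had 3.87 on the KPC-exo array and 3.15 on the MPDC-exo array, a difference of 0.29. Transferrin, the serum iron carrier made mainly by liver, was undetected by either of its 2 probes.

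All 4 copper genes were measured, and their median difference was 0.02. None was 1.5-fold apart, beside 7.43% of all measured genes. The copper importer Slc31a1 had 6.17 on the KPC-exo array and 6.29 on the MPDC-exo array, a difference of -0.03. Slc31a2, which mobilises copper from endosomes, had 4.54 on the KPC-exo array and 3.77 on the MPDC-exo array, a difference of 0.27, with a second probe at 0.20. Of the copper pumps of the Golgi, Atp7a had 3.17 on the KPC-exo array and 3.03 on the MPDC-exo array, a difference of 0.06. Atp7b, known best from liver, had 0.398 on the KPC-exo array and 0.521 on the MPDC-exo array, a difference of -0.39. The copper genes thus went both ways, with Atp7b the lowest of the 4.

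**Figure D3:**
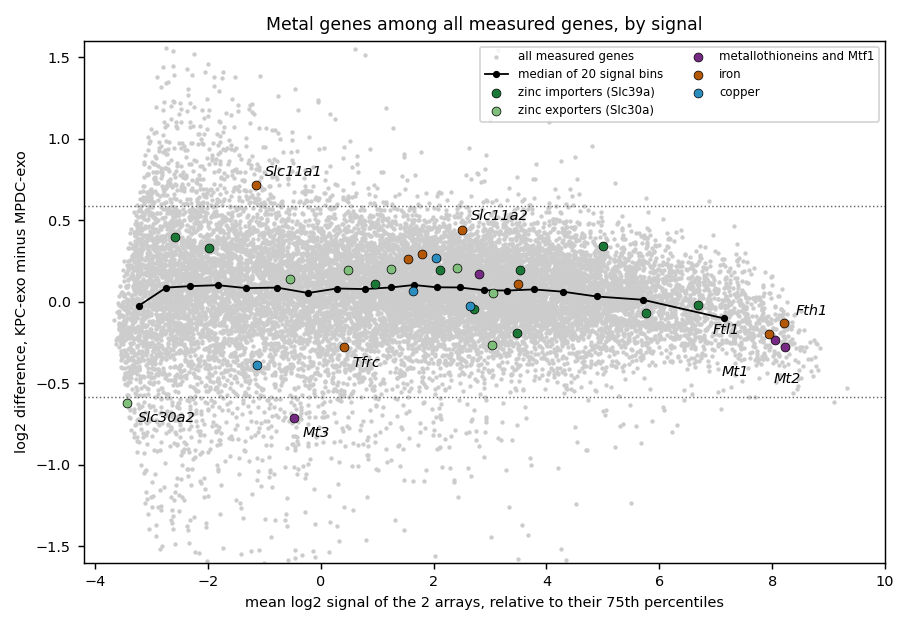
Log2 difference, KPC-exo minus MPDC-exo, against mean scaled log2 signal for the 16993 measured genes (grey, those beyond the limits of the vertical axis not drawn) and the metal genes (coloured by group). The line joins medians of 20 signal bins, the last of which is -0.10, and dotted lines mark 1.5-fold. Mt1, Mt2, Fth1 and Ftl1 lie at the bright end, where most genes sit below 0, and the dim end is the widest.

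Probes within a gene decided many of the signs. In 14 members 2 or more probes were measured, and in 9 of the 14 they lay on both sides of 0. Over all genes with 2 or more measured probes this was 53.8%. Between the most upstream and the most downstream measured probe of these 14 members, the upstream one had the lower difference in 9 and the higher in 5. The 9 include Slc39a7, whose probes both gave -0.02. This count was not made over all genes, so it is no result about metal genes. Between these end probes, the widest gaps were those of Slc39a9, Tfrc and Aco1. Slc39a9 had -0.71 upstream and 0.11 downstream, Tfrc -1.07 upstream and -0.28 downstream, and Aco1 -0.63 upstream and 0.11 downstream. Over all its measured probes, Slc11a2 spread more widely, from -0.44 to 0.44. In Mt1 and Ftl1 the upstream probe was the higher one.

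Other genes of the same metals, from a list of 63, gave a similar picture. On both arrays 54 of the 63 were measured, their median difference was 0.06, none was counted as higher, and 2 were lower on the KPC-exo array. Beside them stand 3.73% of all measured genes higher and 3.7% lower, so the count is no result about these genes as a class. Cox17, which carries copper to cytochrome oxidase, had 56.6 on the KPC-exo array and 98.6 on the MPDC-exo array, 1.74-fold lower with a difference of -0.80, though its 3 probes ranged from -0.80 to 0.14. Loxl2, a copper-dependent collagen crosslinking enzyme, had 0.503 on the KPC-exo array and 0.820 on the MPDC-exo array, 1.63-fold lower with a difference of -0.71, and its second probe gave -0.11. In both genes the threshold was passed by the brightest probe, and the mean over probes was under it.

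The 34 measured genes of iron and heme had a median difference of 0.09. Hmox1, which frees iron from heme, had 14.2 on the KPC-exo array and 19.2 on the MPDC-exo array, a difference of -0.43. The iron chaperone Pcbp1, which delivers iron to ferritin, had 103 on the KPC-exo array and 132 on the MPDC-exo array, a difference of -0.36. Both were lower in scaled signal by less than 1.5-fold. Ncoa4, the receptor for autophagy of ferritin, had 10.1 on the KPC-exo array and 10.2 on the MPDC-exo array, a difference of -0.01. Fbxl5, the iron-sensing ligase that degrades Ireb2, had 5.59 on the KPC-exo array and 5.68 on the MPDC-exo array, a difference of -0.02. A second probe gave 0.30 for Ncoa4 and 0.56 for Fbxl5, so neither gene has a difference that its probes share.

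Steap3, an endosomal iron reductase, had 6.84 on the KPC-exo array and 5.99 on the MPDC-exo array, a difference of 0.19. Slc25a37, the mitochondrial iron importer, had 20.1 on the KPC-exo array and 18.5 on the MPDC-exo array, a difference of 0.12, with its 3 measured probes from -0.67 to 0.12. The differences of the ferroxidase Cp and of Alas1, the first enzyme of heme synthesis, were 0.00 and 0.02 by their brightest probes. The 5 Cp probes ranged from -0.83 to 0.46 and the 3 Alas1 probes from -0.34 to 0.34, and the reductase Cybrd1 was not well above background. The 15 copper genes had a median difference of -0.02. The chaperones Atox1, Ccs and Sco1 had differences of -0.08, 0.19 and -0.13, with other probes at -0.32 for Ccs and 0.07 for Sco1. The 5 measured zinc genes of the list had a median of -0.06.

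**Figure D4:**
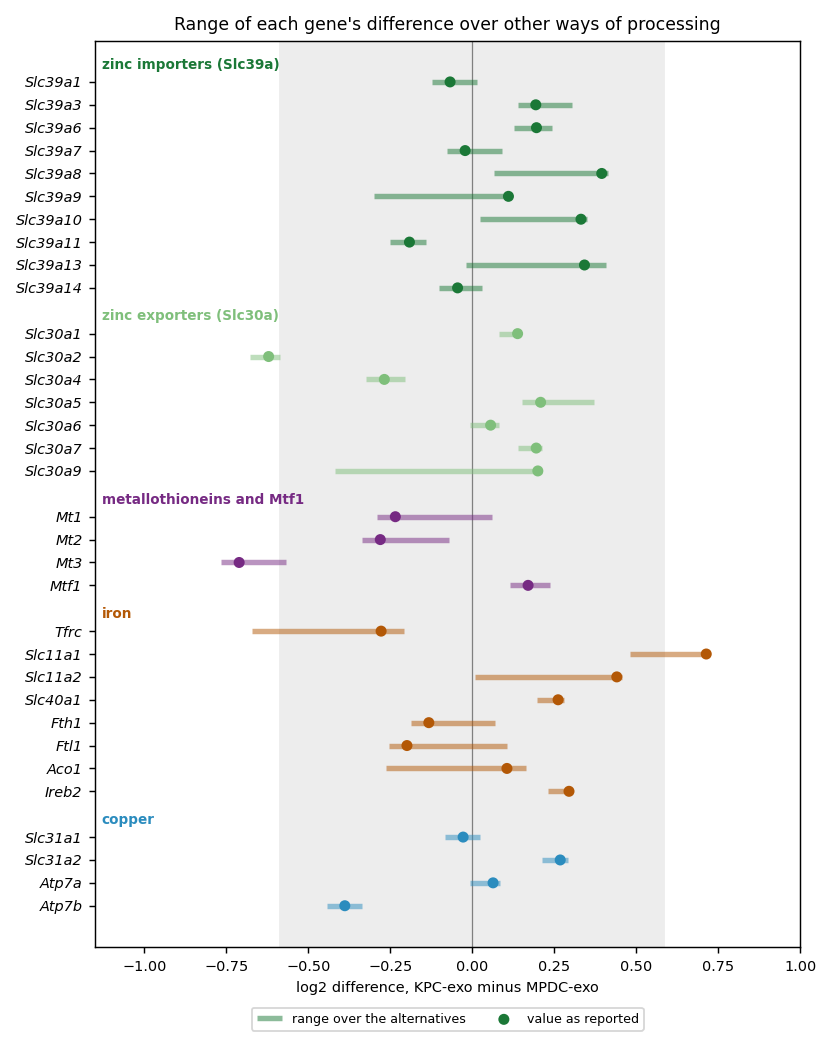
Log2 difference of each measured gene as reported (points) and its range over the other ways of processing, spike-in centring left out (bars), KPC-exo minus MPDC-exo. The grey band marks less than 1.5-fold. Slc11a1, Mt3, Slc30a2 and Tfrc reach past the band in at least 1 setting, and the other 29 genes stay within it.

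The directions of 20 of the 33 measured genes were the same in 11 other ways of processing where each could be computed, spike-in centring left out. Several of the 11 could move a value only little, since no metal gene spot was flagged and other centring shifts all genes alike. Among these were Slc11a1, Mt3, Slc30a2, Mt2, Tfrc, Slc40a1, Ireb2, Slc31a2 and Atp7b. The other 13 changed direction in at least 1 of the 11, and they were Slc39a1, Slc39a7, Slc39a9, Slc39a13, Slc39a14, Slc30a6, Slc30a9, Mt1, Fth1, Ftl1, Aco1, Slc31a1 and Atp7a. The median of the metallothioneins and Mtf1 stayed below 0 in all 11, between -0.31 and -0.05, and that of the iron genes stayed above 0, between 0.06 and 0.22. The median of the zinc importers turned to -0.02 with the mean over probes, and that of the zinc exporters to -0.07 without spots flagged for background and to -0.05 with no filter on dim probes. The copper median was near 0 throughout, from -0.04 to 0.06.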

How the data were processed

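Total RNA of C2C12 myotubes was read on 2 one-colour Agilent arrays, 1 per group. Agilent Feature Extraction 10.7.1.1, named in the submitters' processing notes, produced the deposited spot intensity, per the file headers with background subtracted and no normalization between arrays. The deposited series table holds log2 values, not centred per gene (column medians 4.89 and 4.89), and how the authors made it is not stated there. They correlated with the scanner values across probes at 1.00 and served as an alternative.

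The log2 processed signal was centred on the 75th percentile of each array. Spots flagged as non-uniform or population outliers were left out and spots of a probe averaged. A gene was measured where a probe passed the software's background call on both arrays, and the brightest such probe represents it. On the KPC-exo array 47.6% of probes were well above background, and on the MPDC-exo array 45.9%. Names came from the array design, updated by RefSeq accession for 32994 probes, without effect on the genes chosen by name. Probe positions are on mm9 and promoters are RefSeq GRCm38.p6. The number of arrays limits the precision, and no test was run.

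Every gene of the rule is named. Of the other metal genes, 12 fixed ones and all past 1.5-fold are named. The members and lists were chosen with earlier results of these data known. The alternatives were normexp (offset 50), other centring, quantile and cyclic loess normalization, other filters, the mean over probes, flagged spots kept or background-flagged spots left out, the series table and other thresholds. The counting code was run on simulated data in which probes of a gene disagreed less than here, so it gives no error rate for these arrays. The tools were limma 3.58.1 in R 4.3.3, and pandas 2.3.3, numpy 2.4.6 and matplotlib 3.10.9 in Python 3.11.15.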

Additional observations from a re-analysis of the deposited data

How the results depend on the processing

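Of 354 differences of the 33 measured metal genes under 11 alternatives, 349 lay within the between-probe SD of the value reported. The 5 others came from the mean over probes or the omission of background-flagged spots. Several alternatives could hardly move a value, so the 349 are no measure of robustness. No metal gene spot was flagged, the mean over probes leaves genes with 1 probe unchanged, and other centring shifts all genes alike. The mean over probes gave -0.30 for Slc39a9, -0.67 for Tfrc, 0.01 for Slc11a2 and -0.26 for Aco1, and the omission gave -0.42 for Slc30a9. Metal genes 1.5-fold higher on the KPC-exo array, 1 as reported, numbered 0 with normexp, 2 with no filter on dim probes and 0 with a stricter filter, while those lower, 2 as reported, numbered 1 with normexp and 1 with the stricter filter. At 2-fold there were 0 in either direction, and at a difference of at least 25%, 5 were higher. Of all measured genes, 634 higher and 629 lower as reported, normexp left 275 higher. No filter gave 3068 higher and 2660 lower, in a wider set that includes genes not well above background. The stricter filter gave 175 higher and 255 lower, in a smaller set. The sizes of these sets are not given here, so counts under either filter, metal genes included, have no share to stand beside. Of the genes measured as reported, 124 were higher and 202 lower at 2-fold, and 2629 higher and 1718 lower at 25%. The other metal genes, 0 higher and 2 lower as reported, gave 1 higher with cyclic loess, 0 lower with the mean over probes, 0 lower at 2-fold, and 2 higher and 4 lower at 25%.

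Centring on spike-in probes moved every difference up by the same amount, 1.00 on the log2 scale. It gave 31 metal genes higher and 0 lower, 15865 of all genes higher and 57 lower, and 51 other metal genes higher and 0 lower. The medians became 1.15 for the zinc importers, 1.14 for the exporters, 0.74 for the metallothioneins, 1.18 for the iron genes, 1.02 for the copper genes, 1.1 for all metal genes and 1.06 for all genes. Slc30a2 turned to 0.38 and Mt3 to 0.29. The causes of this and of the other shifts were not tested. No paired analysis was possible because there was 1 array per group and no test. Signal over background limits the dim genes most: Slc30a2 and Mt4 are near background, and no array can show the spread between cultures.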
